A study of Mus musculus with 8 samples.

Results

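The comparison sets AtT-20 cells carrying an introduced EGF receptor (EGFR) and given EGF for 18 h against cells of the same EGFR line given water. AtT-20 is a mouse line derived from a pituitary corticotrope tumour. Corticotropes make Pomc, the precursor of the stress hormone ACTH, and the title of the series names EGF, Pomc and STAT3. The genes described are the 9163 protein-coding loci with at least 1 FPKM (fragments per kilobase of transcript and per M mapped fragments) in at least 2 of the 4 libraries compared, of 12193 gene loci with values in all. They were chosen by this expression filter only, and 311 of 9474 protein-coding loci did not pass it. The nearest gene inside the filter was Apof (second-highest value 1.01 FPKM) and the nearest outside was Pcdha4 (0.987 FPKM).

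Each group held 2 libraries, called water 1 and 2 and 18 h EGF 1 and 2 here after their replicate numbers. A further 2 libraries of the EGFR line given EGF for 3 h were used to ask which changes differed between the times. A control line carrying Neo, given water, entered the estimate of the spread. All cells were AtT-20, grown in DMEM with fetal bovine serum. The labels do not say whether either line is a clone or a pool, nor of which species the introduced EGFR is. The water libraries are labelled 3 h, so 18 h of EGF and the longer culture cannot be told apart. No library of the Neo line received EGF, and the labels do not say that replicates were separate cultures, so the p-values speak for the scatter among these libraries alone, which may be technical.

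The EGF receptor is a tyrosine kinase of the ERBB family. Ligand binding activates the RAS, RAF, MEK and ERK kinase cascade, PI3 kinase with AKT, and STAT transcription factors, among them STAT3. ERK signalling induces transcription factors first and, with them, phosphatases and adapters that damp the same pathway, while AKT holds FOXO factors out of the nucleus. In corticotropes, Tbx19 is the lineage factor that activates Pomc, and glucocorticoids repress Pomc through the receptor Nr3c1.

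The libraries were close to one another within groups (r = 0.997 to 0.999 over tested genes between replicates). The depth read from the steps of low FPKM values was roughly 53.6 to 64.8 M fragments per library, a crude figure from 10 to 21 genes in each. The first principal component of the tested genes (52.6% of the variance) separated the water libraries from those with EGF, and the second (25.1%) separated 3 h from 18 h. Egfr (ENSMUSG00000020122, chr11:16752203-16918158, plus strand) was listed at a mean of 0.147 ± 0.113 FPKM (SD, n = 2) in the Neo line and 26.7 ± 1.13 FPKM (SD, n = 2) in the EGFR line in water, so the labelled line carried RNA that was assigned to mouse Egfr. Whether that RNA came from the introduced EGFR or from the mouse gene itself cannot be told from these values. Of 7 corticotrope markers, 5 had tested values, all at 10.1 FPKM or above in every library, with Pomc between 6981 and 8930 FPKM. Crhr1 and Avpr1b had no tested locus. Of a longer list of 32 corticotrope identity genes, 18 had values. None of the fibroblast, endothelial or blood cell markers listed had values. Of 19 markers of other pituitary lineages, 2 had values. In the EGFR line in water, Gata2 was at 10.5 and 11.7 FPKM and Sox2 at 4.16 and 4.23 FPKM.

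Gene expression at 18 h differed from water in many genes and by a large factor in few. In limma's test of log2(FPKM + 1), with Benjamini-Hochberg adjustment over all tested genes and a threshold of 0.05, 1535 genes were higher at 18 h (16.8% of those tested) and 2116 were lower (23.1%). The median difference of the called genes was 0.24 on the log2 scale for those that rose and -0.20 for those that fell. At least 1.5-fold changes were found in 208 higher and 61 lower genes, and at least 2-fold changes in 65 and 8. The values of the 2 groups did not overlap for any of the 3651 genes called. The balance of directions depended on scaling: genes that rose made up 42.0% of calls with the deposited values, 52.99% after median-ratio scaling, 60.8% after scaling to a common sum and 45.6% after quantile normalization. These scalings moved the median of all genes by 0.0274, 0.0450 and 0.00862 on the log2 scale. Small differences of widely shared direction are therefore read below beside the background shares of 16.8% and 23.1%. Leaving out water 1, water 2 or 18 h EGF 1 lowered the number of genes that fell to 1190, 1377 and 1307.

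**Figure D1:**
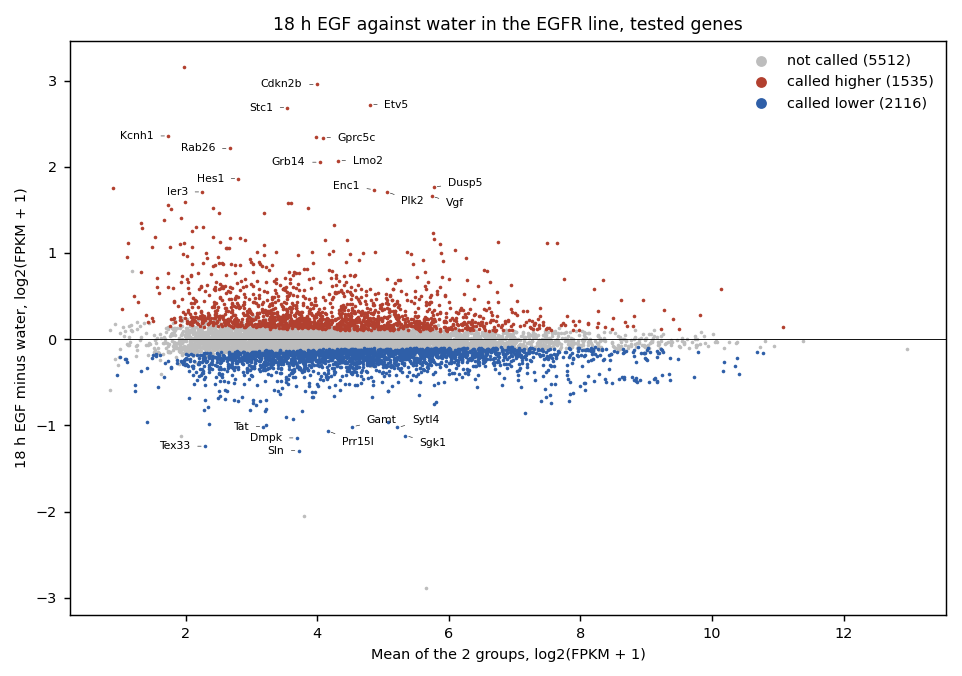
Difference between 18 h EGF and water (vertical axis, log2(FPKM + 1)) against the mean of both groups (horizontal axis, same scale) for the 9163 tested genes, 1 point per gene. Red points are the 1535 genes called higher and blue points the 2116 called lower. The labelled increases reach 2.95 (Cdkn2b), and the labelled decreases reach -1.29 (Sln). The grey points near -2 and -3 are Coro2a and Nans, each listed at 0 in 1 of the 18 h libraries.

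The largest increase by the rule for named genes, on the log2(FPKM + 1) scale, was in Cdkn2b, which encodes the CDK4 and CDK6 inhibitor p15. In this order the added 1 understates changes of low genes, such as Kcnh1 below. Cdkn2b (ENSMUSG00000073802, chr4:89306289-89311032, minus strand) stood at 4.66 and 4.77 FPKM in water and 42.1 and 44.6 FPKM at 18 h, a rise of 2.95 ± 0.045 (SE, log2 scale; limma adjusted p = 1.03e-11). Etv5 (ENSMUSG00000013089, chr16:22381309-22439719, minus strand), an ETS transcription factor induced by ERK, went from 9.72 and 9.997 to 71.7 and 69.6 FPKM, a rise of 2.72 ± 0.041. Both genes had 18 h values several times those in water, with replicates close together. Stc1, a secreted glycoprotein hormone, went from 3.44 and 3.76 to 29.5 and 27.7 FPKM (2.69 on the log2 scale). Kcnh1, a voltage-gated potassium channel, was under 1 FPKM in water (0.456 and 0.481) and at 6.58 and 6.47 FPKM at 18 h (2.36). Kcnh1 passed the expression filter only through its 18 h libraries, so a gene as low in both groups could not have been tested. One larger increase, chosen after its values were seen because clone names fall outside the rule, was that of 9230104L09Rik (3.16 on the log2 scale).

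The other leading increases included genes of signalling, secretion and transcription. Gprc5c, an orphan G protein-coupled receptor, went from 7.0003 and 6.18 to 38.3 and 36.4 FPKM (2.34 on the log2 scale). Rab26, a small GTPase of secretory granules, went from 1.73 and 2.18 to 13.2 and 12.2 FPKM (2.21). Groups that do not overlap were a condition of the rule that picked these genes and the next. Lmo2, a LIM-domain cofactor, rose by 2.07, Grb14, an adapter that inhibits receptor tyrosine kinases, by 2.05, Hes1, a repressor downstream of Notch, by 1.86, and Enc1, an actin-binding protein, by 1.73 on the log2 scale. The limma adjusted p-values of these 6 genes lay between 1.64e-10 and 5.66e-08.

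**Figure D2:**
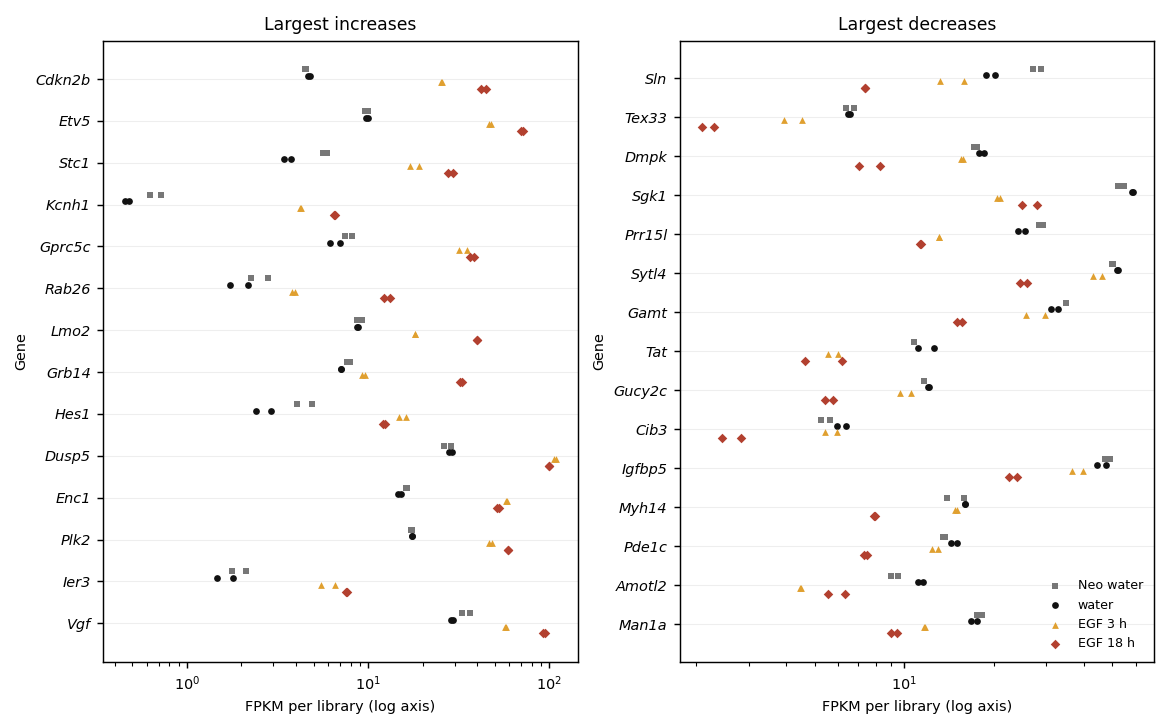
FPKM in each library (horizontal log axis) for 14 of the 15 largest increases and the 15 largest decreases by the rule for named genes, 1 symbol per library. Red diamonds are 18 h EGF, orange triangles 3 h EGF, black circles water and grey squares the Neo line in water. For Cdkn2b the 18 h libraries sit at 42.1 and 44.6 FPKM against 4.66 and 4.77 in water, and for Sln both sit at 7.39 FPKM against 18.8 and 20.2.

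The largest decreases were smaller than the largest increases. Sln, sarcolipin, a small inhibitor of the calcium pump of the endoplasmic reticulum, went from 18.8 and 20.2 FPKM in water to 7.39 and 7.39 FPKM at 18 h and fell by 1.29 ± 0.072 (SE, log2 scale; limma adjusted p = 2.52e-07). Dmpk, a protein kinase, went from 17.7 and 18.5 to 8.305 and 7.03 FPKM and fell by 1.14. Sgk1, a kinase induced by glucocorticoids, went from 58.6 and 58.3 to 27.97 and 24.9 FPKM and fell by 1.12. Values of all 3 genes were lower in both 18 h libraries than in either water library, which the rule for named genes required. Sytl4, which binds Rab27 on secretory granules, fell by 1.02, and Gamt, an enzyme of creatine synthesis, by 1.02 on the log2 scale. Igfbp5, an IGF-binding protein, went from 44.4 and 47.6 to 23.9 and 22.5 FPKM and fell by 0.96. The remaining 9 of the 15 decreases were Tex33, Prr15l, Tat, Gucy2c, Cib3, Myh14, Pde1c, Amotl2 and Man1a, with differences between -0.83 and -1.24 on the log2 scale.

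Some genes of the receptor system rose. Egfr itself was at 25.9 and 27.5 FPKM in water and 31.9 and 30.3 FPKM at 18 h, a rise of 0.21 ± 0.067 (limma adjusted p = 0.0269) that lost its call without water 1 (adjusted p = 0.159) or without 18 h EGF 1 (0.140). The call of Egfr was also lost with a pseudocount of 0.1 (adjusted p = 0.449), without the filter (0.0579), after quantile normalization (0.0514) and with all loci (0.0553). Of 17 tested genes of ERBB receptors, ligands and adapters, 8 rose (47.1%) and 1 fell (5.88%), against 16.8% and 23.1% of all tested genes. Hbegf, a ligand of EGFR, went from 6.296 and 6.45 to 10.5 and 10.9 FPKM (0.66), and Rhbdf2, which governs the shedding of EGFR ligands, from 1.97 and 1.93 to 5.42 and 4.94 FPKM (1.06). Both were higher still at 3 h, at 16.8 and 16.8 FPKM for Hbegf and 6.46 and 6.23 FPKM for Rhbdf2. Lrig1, a negative regulator of ERBB receptors, rose by 0.54, and the adapter Shc1 by 0.46 on the log2 scale.

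Genes downstream of ERK stood above water at 18 h. Of 24 tested genes of ERK outputs and feedback, 14 rose (58.3%) and 1 fell (4.17%), against 16.8% and 23.1% of all tested genes. The median difference of the list was 0.38 on the log2 scale, against -0.03 over all tested genes. Dusp5, a phosphatase of nuclear ERK, went from 29.04 and 28.02 to 99.3 and 99.6 FPKM (1.77). Ier3, an immediate early gene, went from 1.803 and 1.47 to 7.55 and 7.65 FPKM (1.71), and Spred2, an inhibitor of RAS and RAF signalling, from 2.88 and 3.06 to 6.32 and 5.96 FPKM (0.85). All 3 were higher in both 18 h libraries than in any water library, but groups were apart in every gene called. Of 26 tested immediate early factors, 12 rose (46.2%) and 3 fell (11.5%), with a median of 0.08. The largest rises after Hes1 and Ier3 were in Maff (1.46) and Egr2 (0.56). Among 20 tested genes of adhesion, matrix and proteases, 15 rose (75%) and 2 fell (10%), with a median of 0.35. Plaur, the urokinase receptor, went from 1.46 and 1.14 to 5.73 and 6.06 FPKM (1.59). Nectin1, a cell adhesion molecule, rose by 1.05, Plat, tissue plasminogen activator, by 0.87, and Nrp1, a coreceptor for VEGF and semaphorins, by 0.80.

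The STAT3 axis moved unevenly. Among tested STAT and SOCS genes 40.6% rose and 6.25% fell, against 16.8% and 23.1% of all tested genes. Of 32 tested STAT and SOCS genes, 13 rose and 2 fell, with a median of 0.06, and 8 rose without 18 h EGF 1. Stat3 itself was at 28.6 and 28.1 FPKM in water and 31.3 and 31.1 FPKM at 18 h, a rise of 0.13 ± 0.037 (limma adjusted p = 0.0159) that lost its call when any of the 4 libraries compared was left out (adjusted p = 0.0595 to 0.103). Socs3, a STAT3 target that inhibits JAK signalling, went from 3.85 and 3.56 to 7.14 and 6.598 FPKM (0.74 on the log2 scale). Larger rises were those of Il6ra, the IL-6 receptor chain, from 0.608 and 0.604 to 2.997 and 2.88 FPKM (1.29), and Bcl2l1, which encodes the survival protein BCL-XL, from 34.7 and 33.97 to 80.3 and 83.3 FPKM (1.23). Groups did not overlap for any of these genes, as held for every gene called. Il6ra passed the expression filter only through its 18 h libraries, so a gene as low in both groups could not have been tested.

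Pomc (ENSMUSG00000020660, chr12:3954951-3960618, plus strand) was at 8240.3 and 8307 FPKM in water and 7429 and 7827 FPKM at 18 h. The difference of -0.12 (95% interval -0.23 to -0.004) had a limma adjusted p of 0.0916 and was not called. Pomc was called lower with the same difference when only the 2 groups compared were fitted (adjusted p = 0.0152), with the replicate number as a block (0.0398) and without either 3 h library (0.0172 and 0.0171). Tbx19, the corticotrope lineage factor, went from 88.4 and 92.4 to 113 and 107 FPKM and rose by 0.28 ± 0.045 (adjusted p = 0.000695). Of 18 tested genes of corticotrope identity, 5 rose (27.8%) and 8 fell (44.4%), against 16.8% and 23.1% of all tested genes. Nr4a2, an orphan nuclear receptor that acts on the Pomc promoter, fell by 0.54, and Sstr5, a somatostatin receptor, by 0.54 on the log2 scale. The 5 rises were fewer when a library was left out, with 1 without 18 h EGF 1, 2 without water 2 and 3 without water 1, while 8 genes fell each time.

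The glucocorticoid receptor Nr3c1 went from 42.5 and 42.2 to 32.8 and 32.8 FPKM and fell by 0.36 ± 0.035 (limma adjusted p = 1.71e-05). Of 18 tested glucocorticoid-responsive genes, 5 fell (27.8%) and 2 rose (11.1%), near the 23.1% and 16.8% of all tested genes. The falls were led by Sgk1 and by Tat, tyrosine aminotransferase, which went from 11.1 and 12.6 to 6.16 and 4.64 FPKM (-1.01). The rises were in Anxa2, annexin A2, from 68.4 and 69.5 to 122 and 119.6 FPKM (0.80), and in Errfi1, an inhibitor of EGFR kinase activity, from 9.86 and 9.697 to 13.6 and 12.9 FPKM (0.40). Anxa2 and Errfi1 thus moved opposite to Sgk1 and Tat within 1 list.

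Genes of the regulated secretory pathway rose, as did those of protein folding in the endoplasmic reticulum. Of 26 tested genes of prohormone processing and granules, 16 rose (61.5%) and 3 fell (11.5%), with a median of 0.17. Of all tested genes, 16.8% rose and 23.1% fell. Vgf, a granule protein and peptide precursor, went from 28.6 and 29.4 to 95.1 and 92.4 FPKM (1.66), and Scg2, secretogranin II, from 123 and 119 to 264 and 263 FPKM (1.11). Syt4, a synaptotagmin of secretory vesicles, rose by 1.03, while Sytl4 was the largest fall. Of 41 tested genes of folding and the unfolded protein response, 33 rose (80.5%) and none fell, with a median of 0.19. At an unadjusted limma p below 0.05, 1 of these genes fell. Pdia6, a protein disulfide isomerase, went from 254 and 255 to 406 and 416 FPKM (0.69), at 252 and 262 FPKM at 3 h. Leaving out 1 library at a time left 23 to 33 folding genes higher, and the chaperone Hyou1 (0.35), the disulfide isomerase Pdia4 (0.36) and Edem1 (0.45), of the degradation of misfolded proteins, also rose.

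Genes of the cell cycle fell together by small amounts. Of 61 tested genes of DNA replication, 53 fell and none rose, with a median of -0.24. Of 75 tested genes of mitosis, 65 fell and none rose, with a median of -0.23. At an unadjusted limma p below 0.05, 0 genes of either list rose and 57 and 68 fell. The background share of genes that fell was 23.1%. Gins3, of the replicative helicase, went from 4.37 and 4.27 to 2.87 and 2.78 FPKM (-0.48), Ccne2, cyclin E2, from 102 and 96.96 to 73.4 and 75.7 FPKM (-0.41), and Rfc4, of the clamp loader, from 73.6 and 75.1 to 55.97 and 56.9 FPKM (-0.39). Among mitotic genes, Kif18a, a kinesin, went from 19.8 and 19.8 to 13.8 and 14.9 FPKM (-0.44), Spc25, of the NDC80 kinetochore complex, from 84.2 and 84.9 to 61.97 and 62.2 FPKM (-0.44), and Bub1b, a spindle checkpoint kinase, from 38.5 and 38.5 to 28.97 and 28.4 FPKM (-0.41). Under the 3 other scalings, 49 to 55 replication genes and 56 to 64 mitosis genes fell and none rose, and leaving out 1 library at a time left 46 to 57 and 46 to 66. In these bulk libraries, fewer cycling cells and less of the RNA per cell cannot be told apart.

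Among CDK inhibitors, cyclins and p53 targets, 7 of 34 tested genes rose (20.6%) and 12 fell (35.3%), against 16.8% and 23.1% of all tested genes. The rises were led by Cdkn2b and by Plk2, a p53-responsive kinase, which went from 17.4 and 17.4 to 59.4 and 58.9 FPKM (1.71). Cdkn2a, the neighbour of Cdkn2b that encodes p16 and p19ARF, went from 2.23 and 2.65 to 4.16 and 3.81 FPKM (0.54). Gadd45b, a stress-induced gene, fell by 0.81 on the log2 scale.

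Promoters are shown for the interferon response and for mitosis, whose called members moved almost all in 1 direction (24 higher and 1 lower, and 65 lower). Windows run from 250 bases before to 50 bases after a RefSeq start on GRCm38.p6, and 7037 tested genes matched one. The genes shown are the called members with the largest differences that have a single window. On both strands, the letters searched were GAAANNGAA (interferon-stimulated response element, ISRE), TTCNNNGAA (STAT GAS site), TTTGAA (CHR, cell cycle genes homology region) and CCAAT. Capitals mark only ISRE and GAS matches in the interferon windows and only CHR and CCAAT matches in the mitosis windows, so matches of the other letters stand there in lower case. ISRE and GAS matches may overlap. For the interferon response the genes are Isg15 (chr4:156200769-156201068, minus strand), Samd9l (chr6:3399522-3399821, minus strand) and Bst2 (chr8:71537423-71537722, minus strand).
Isg15: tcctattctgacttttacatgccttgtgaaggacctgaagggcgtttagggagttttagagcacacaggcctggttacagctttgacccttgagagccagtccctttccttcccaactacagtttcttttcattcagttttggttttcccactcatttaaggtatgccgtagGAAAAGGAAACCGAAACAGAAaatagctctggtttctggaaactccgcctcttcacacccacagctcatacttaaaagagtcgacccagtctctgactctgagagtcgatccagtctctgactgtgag
Samd9l: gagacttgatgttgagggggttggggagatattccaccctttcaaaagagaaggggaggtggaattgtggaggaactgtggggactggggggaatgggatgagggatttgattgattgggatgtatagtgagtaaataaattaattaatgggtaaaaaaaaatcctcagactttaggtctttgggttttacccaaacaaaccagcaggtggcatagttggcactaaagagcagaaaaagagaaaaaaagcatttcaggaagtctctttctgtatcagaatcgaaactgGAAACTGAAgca
Bst2: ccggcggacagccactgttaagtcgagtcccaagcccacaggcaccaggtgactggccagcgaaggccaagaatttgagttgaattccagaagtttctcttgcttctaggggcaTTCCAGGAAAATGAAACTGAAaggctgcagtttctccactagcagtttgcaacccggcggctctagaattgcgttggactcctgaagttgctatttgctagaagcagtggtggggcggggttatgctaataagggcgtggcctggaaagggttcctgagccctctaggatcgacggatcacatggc
Isg15 holds 3 overlapping ISRE matches, which start 78, 72 and 66 bases before the start. Samd9l holds 1 ISRE match, at transcribed base 39. Bst2 holds 2 overlapping ISRE matches, 130 and 124 bases before the start, beside a GAS match at 136. Of the 19 called interferon response genes that rose and have a window, 10 (52.6%) hold an ISRE match, against 8.01% of all tested genes with a window, and 6 (31.6%) hold a GAS match, against 7.83%. These are matches of letters and no measure of binding.

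For mitosis the genes are Kif18a (chr2:109280488-109280787, plus strand), Spc25 (chr2:69206164-69206463, minus strand) and Bub1b (chr2:118597961-118598260, plus strand).
Kif18a: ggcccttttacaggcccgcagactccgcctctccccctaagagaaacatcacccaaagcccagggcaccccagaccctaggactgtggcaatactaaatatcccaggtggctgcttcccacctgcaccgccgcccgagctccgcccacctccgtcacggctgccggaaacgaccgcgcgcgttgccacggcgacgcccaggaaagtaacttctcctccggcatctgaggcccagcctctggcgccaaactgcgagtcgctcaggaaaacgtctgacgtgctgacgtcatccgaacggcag
Spc25: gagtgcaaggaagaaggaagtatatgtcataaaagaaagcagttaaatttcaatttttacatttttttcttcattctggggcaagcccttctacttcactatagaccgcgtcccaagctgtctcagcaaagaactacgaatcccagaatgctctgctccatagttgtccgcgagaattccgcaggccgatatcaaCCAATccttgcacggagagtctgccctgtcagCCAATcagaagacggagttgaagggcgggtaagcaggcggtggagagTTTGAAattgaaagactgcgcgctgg
Bub1b: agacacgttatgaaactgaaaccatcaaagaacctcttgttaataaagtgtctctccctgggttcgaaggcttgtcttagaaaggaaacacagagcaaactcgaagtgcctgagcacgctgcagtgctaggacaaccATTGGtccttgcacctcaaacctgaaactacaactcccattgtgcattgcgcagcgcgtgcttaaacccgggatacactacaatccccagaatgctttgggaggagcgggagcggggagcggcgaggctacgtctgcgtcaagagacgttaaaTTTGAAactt
Kif18a holds neither a CHR nor a CCAAT match in this window. Spc25 holds 1 CHR match at transcribed base 25 and CCAAT matches 55 and 23 bases before the start. Bub1b holds 1 CHR match at transcribed base 41 and a CCAAT match, read on the other strand, 113 bases before the start. Of the 56 mitosis genes that fell and have a window, 39 (69.6%) hold a CHR match, against 13.7% of all tested genes with a window and 17.8% of all genes that fell. A search for the E2F letters TTTGGCGC or TTTCCCGC found them in 12 of 43 (27.9%) replication genes that fell, against 3.85% of all tested genes with a window. CCAAT was found in 19 of 25 (76.0%) folding genes that rose, against 44.5%.

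These 5 pairs of a motif and a list were picked after their shares were seen, among searches of 11 motifs in the called genes of each list with at least 5 windows in a direction. Most tested members of these lists were called, and shares among members not called were not computed. Whether the shares go with the response or only with membership of the lists was not tested. Other lists also stood above the share of all genes for some motifs, such as CCAAT in 7 of 9 (77.8%) immediate early factors that rose. The letters TGANTCA (AP-1 site), TGACGTCA (CRE), CACGTG (E-box), GTAAACA (FOXO site), CCGGAAGT (ETS site) and TCACNCCAC (sterol element) were searched on both strands in the same windows. They were found in 5.07%, 4.08%, 12.3%, 2.90%, 10.8% and 1.44% of all tested genes with a window, in that order. The GAS letters were in 1 of 11 (9.09%) STAT and SOCS genes that rose, against 7.83% of all genes, and the ETS letters in 1 of 11 (9.09%) ERK output and feedback genes that rose, against 10.8%. The AP-1 letters were in 0 of 9 immediate early factors that rose and the CRE letters in 1 of 15 (6.67%) cAMP, calcium and G protein signalling genes that rose. The FOXO letters were in 1 of 6 (16.7%) FOXO-type targets that fell, and the sterol element in 0 of 7 lipid synthesis genes that rose and 1 of 9 (11.1%) that fell. With so few windows in a list, 1 match more or less moves these shares widely.

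**Figure D3:**
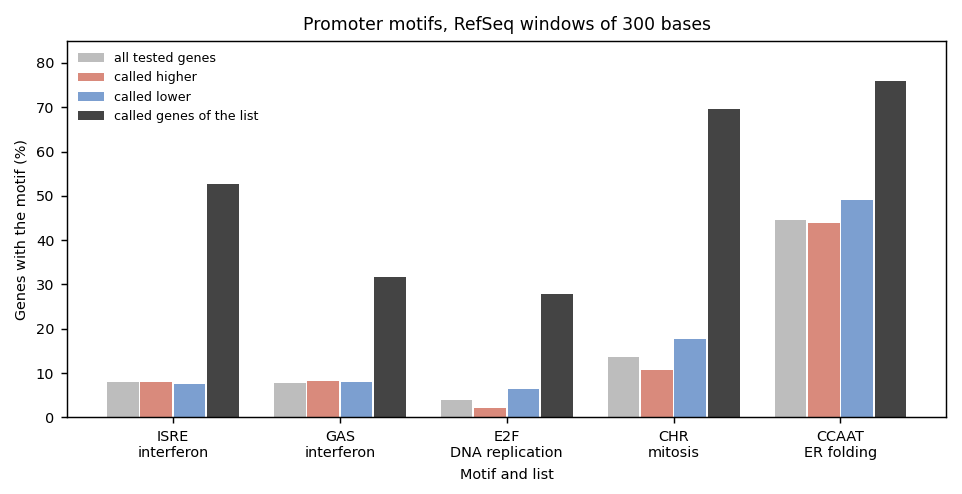
Percent of genes whose RefSeq promoter window holds each motif (vertical axis), for all tested genes (grey), all called higher (red), all called lower (blue) and the called genes of the list named under each group (dark), for 5 pairs picked after their shares were seen. The dark bars reach 52.6% for ISRE, 31.6% for GAS, 27.9% for E2F, 69.6% for CHR and 76.0% for CCAAT, and the grey bars 8.01%, 7.83%, 3.85%, 13.7% and 44.5%.

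Interferon response genes were higher at 18 h, and the replicates differed in how far. Of 70 genes listed, 31 had tested values, with a median of 0.34 on the log2 scale. Of the 31, 24 rose (77.4%) and 1 fell (3.23%), against 16.8% and 23.1% of all tested genes. Usp18, which removes ISG15 from proteins, was at 2.37 and 2.38 FPKM in water and at 6.46 and 10.6 FPKM in 18 h EGF 1 and 2 (1.46 ± 0.15, limma adjusted p = 2.53e-05). Isg15, the ubiquitin-like modifier, went from 4.502 and 3.499 to 8.31 and 12.1 FPKM (1.15), and Bst2, tetherin, from 10.2 and 9.89 to 15.2 and 24.8 FPKM (0.89). In each of these genes the second 18 h library stood well above the first, and both stood above water. Over the list, 27 of 31 genes were higher in 18 h EGF 2 than in 18 h EGF 1, against 4852 of all 9163 tested genes, with a median difference of 0.12 on the log2 scale. Without 18 h EGF 2, 19 of the 31 genes rose, and without 18 h EGF 1, 25 did. The order was not particular to this list. 18 h EGF 2 was also the higher in 40 of 45 proteasome, 64 of 74 respiratory chain and 66 of 79 cytosolic ribosomal protein genes. Their median differences were smaller (0.045, 0.043 and 0.036). In glycolysis and hypoxia, 6 of 39 genes were higher in 18 h EGF 2. What set the 18 h libraries apart was not tested.

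**Figure D4:**
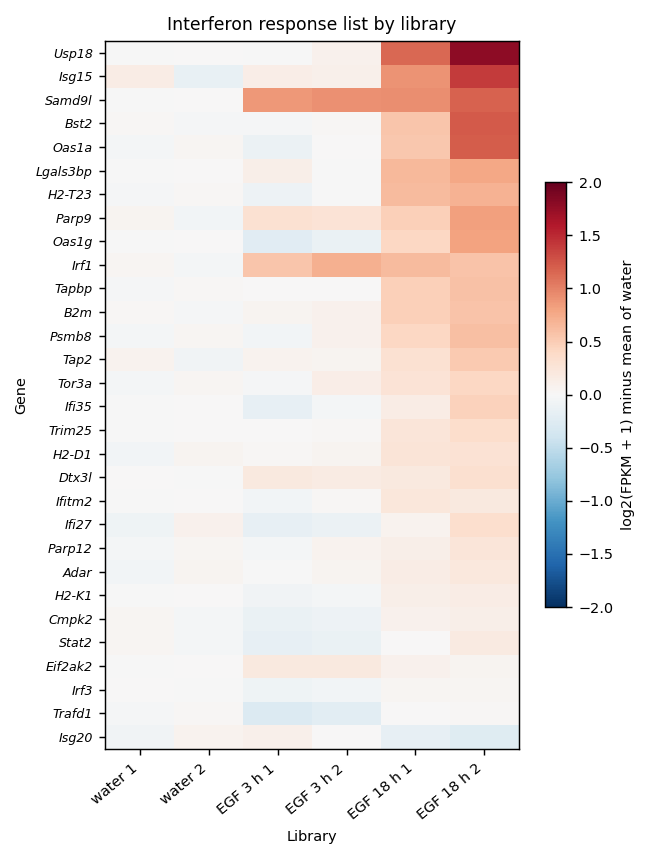
Each row is 1 of 30 tested interferon response genes, each column 1 library of the EGFR line, and colour is log2(FPKM + 1) minus the mean of the water libraries. The rows are ordered by the difference between 18 h and water, from Usp18 (1.46) down to Isg20 (-0.20). The 18 h columns are red in most rows, and the second is higher than the first in 26 of 30.

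Metabolic and housekeeping lists moved less, and some of their directions turned with scaling. Of all tested genes, 16.8% rose and 23.1% fell. Of respiratory chain genes 48.6% fell, and of ribosome biogenesis genes 40.7%. Cytosolic ribosomal protein genes (1.27% rose, 5.06% fell) and proteasome genes (6.67% and 11.1%) were called less often than all genes. Lipid synthesis genes stood at 31.6% and 28.9%, glycolysis and hypoxia at 33.3% and 15.4%, and amino acid and ATF4 genes at 14.6% and 36.6%. Of 74 tested respiratory chain genes, 36 fell and 1 rose (Uqcrq, 0.31), with a median of -0.11, but 14 fell after quantile normalization, and 10, 11 and 11 fell without water 1, water 2 and 18 h EGF 1. Of 59 ribosome biogenesis genes, 24 fell and none rose with the deposited values (1 rose at an unadjusted limma p below 0.05), while 6 fell and 1 rose after scaling to a common sum, and 4, 8, 9 and 8 fell without water 1, water 2, 18 h EGF 1 and 18 h EGF 2. Of 79 cytosolic ribosomal protein genes, 4 fell and 1 rose with the deposited values, and 1 fell and 32 rose after quantile normalization. These 5 calls were lost without water 1, water 2 or 18 h EGF 1. Proteasome genes, with 3 higher and 5 lower of 45, likewise turned to 13 higher and 2 lower after scaling to a common sum, with 1 higher and 2 lower without water 1, 1 higher and 1 lower without water 2, 2 higher and 1 lower without 18 h EGF 1 and 2 higher and 3 lower without 18 h EGF 2. Of 38 genes of cholesterol and fatty acid synthesis, 12 rose and 11 fell: the desaturases Fads2 and Fads1 rose by 0.45 and 0.34, while Idi1, an enzyme of the isoprenoid pathway, fell by 0.35. Of these 38 genes, 7 rose without water 1, water 2 or 18 h EGF 1. Of 39 genes of glycolysis and hypoxia, 13 rose and 6 fell, and Aldoc, an aldolase, rose by 0.44, but 8 of the 39 rose without water 1 or 18 h EGF 1. Of 41 genes of amino acid metabolism and ATF4 response, 15 fell and 6 rose, and 9 fell without 18 h EGF 2. Fgf21, a secreted stress hormone, went from 509.9 and 517 to 375 and 383 FPKM (-0.44).

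Signalling and excitability genes went both ways, where 16.8% of all tested genes rose and 23.1% fell. Of 43 tested genes of cAMP, calcium and G protein signalling, 19 rose and 10 fell, and 6 fell without water 1 or 18 h EGF 1. Rgs4 and Rgs2, which switch off G proteins, rose by 1.39 and 0.90, and Pde1c, a calcium-activated phosphodiesterase, fell by 0.90. Of 26 ion channel and calcium handling genes, 12 rose (46.2%) and 6 fell (23.1%). Itpr3, an IP3 receptor, went from 40.8 and 39.8 to 26.3 and 26.1 FPKM (-0.60). Of 25 FOXO-type targets, 8 fell (32%) and 3 rose (12%). Fbxo32, an E3 ligase subunit, went from 4.78 and 4.99 to 2.96 and 3.21 FPKM (-0.53), and Klhl24, a kelch adapter, from 15.5 and 14.7 to 10.7 and 11.1 FPKM (-0.43), while Irs2, the insulin receptor substrate, rose by 0.48.

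**Figure D5:**
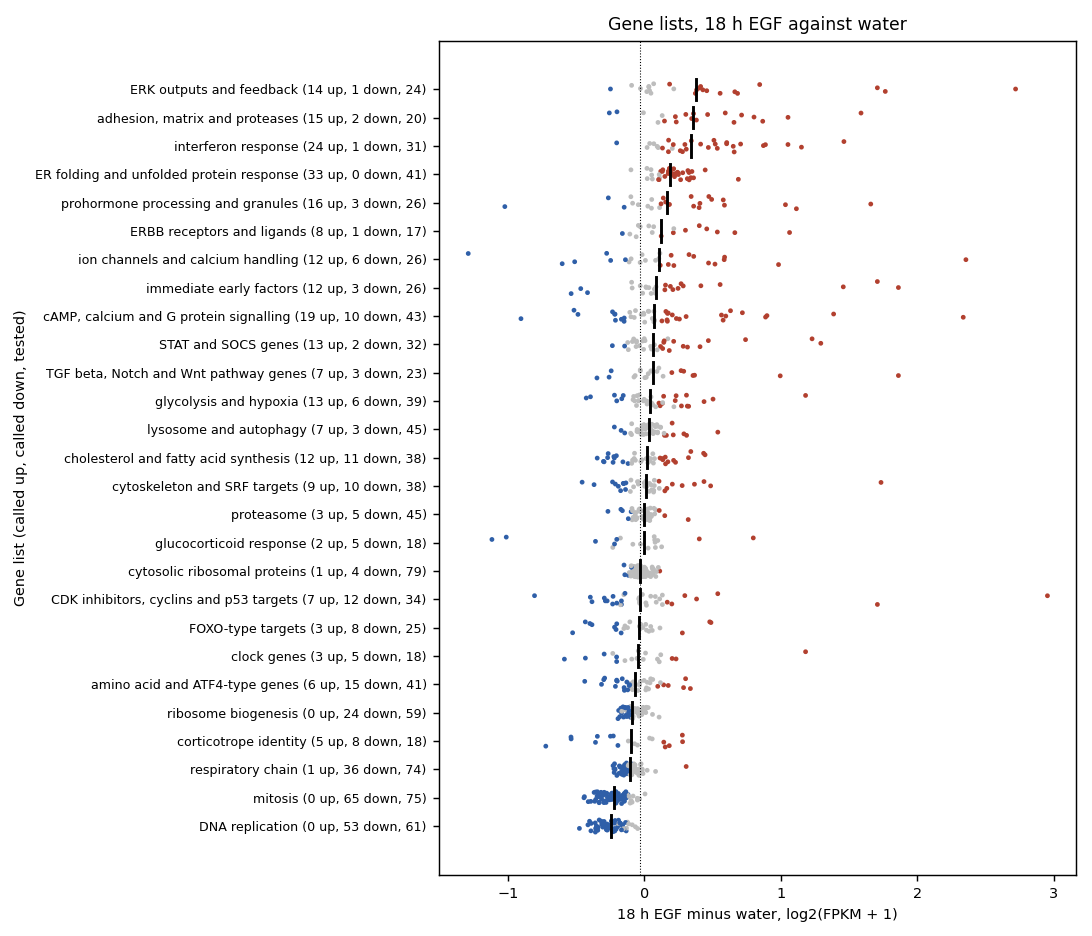
Difference between 18 h EGF and water (horizontal axis, log2(FPKM + 1)) for the tested genes of 27 lists, 1 point per gene, red where called higher, blue where called lower and grey otherwise. Black bars are list medians and the dotted line is the median of all tested genes (-0.03). Medians run from 0.38 for ERK outputs and feedback to -0.24 for DNA replication.

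Whether levels at 18 h differed from those at 3 h was tested directly between the EGF libraries. Of the tested genes, 2000 were higher at 18 h than at 3 h (21.8%) and 1773 lower (19.3%), with at least 2-fold differences in 15 and 2. Without 3 h EGF 1, 1333 were higher, and without 18 h EGF 1, 1123 were lower. The 3 h and 18 h groups were both compared with the same water libraries, so their differences from water share those libraries. Cdkn2b was at 25.2 and 25.6 FPKM at 3 h and Etv5 at 46.7 and 47.8 FPKM, and both rose further by 18 h, by 0.74 and 0.57 on the log2 scale (limma adjusted p = 1.58e-06 and 4.34e-06). For Dusp5 (difference -0.11, 95% interval -0.21 to -0.01) and Gprc5c (0.16, 0.01 to 0.31) no difference between the times was called. Hes1 was lower at 18 h than at 3 h by 0.32, at 16.2 and 14.8 FPKM at 3 h.

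Some other genes and lists stood nearer to water at 3 h than at 18 h, while Fbxo32, Klhl24 and Nab2 stood farther from it. Of all tested genes, 21.8% were higher and 19.3% lower at 18 h than at 3 h. Grb14 was at 9.58 and 9.301 FPKM at 3 h and differed by 1.68 between the times (limma adjusted p = 7.14e-09), and Scg2 was at 121 and 129.7 FPKM and differed by 1.07. The interferon list had 25 of 31 genes higher and 1 lower at 18 h than at 3 h, with medians of 0.02 at 3 h and 0.34 at 18 h against water. The folding list had 27 of 41 higher and 1 lower, with medians of 0.01 and 0.19. DNA replication had 42 of 61 lower and none higher, with medians of -0.09 and -0.24, and mitosis 38 of 75 lower and 1 higher, with -0.11 and -0.23. For Fbxo32 (1.61 and 1.66 FPKM at 3 h) and Klhl24 (6.24 and 5.802 FPKM), 18 h was higher than 3 h, by 0.63 and 0.76, and both were still below water. Nab2, a corepressor of EGR factors, was at 16.3 and 17.7 FPKM at 3 h and 5.84 and 6.19 FPKM at 18 h, and fell by 1.36 between the times.

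Values of Ankrd37, Atp5o, Dusp5, Etv5, Fau, Idi1, Isg15, Mrto4, Nab2, Ndrg1, Ndufb4, Psmd9, Rpl13a, Rpl18, Shc1, Slbp and Stmn1 are uncertain in source, since at least 20% of their transcript or exon bases is shared with other genes. Nans was listed at 0 in 18 h EGF 1, against 75.6 FPKM in 18 h EGF 2 and 64.3 and 63.5 FPKM in water. Coro2a was listed at 0 in 18 h EGF 1, against 19.1 FPKM in 18 h EGF 2 and 17.7 and 17.4 FPKM in water. Neither was called, and no fold is given for them.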

How the data were processed

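The authors deposited FPKM for each gene locus on mm10 in each of the 8 libraries, and the values were used as deposited. Tools listed in the submitters' processing notes are TopHat2 2.0.8, Trimmomatic 0.22, DESeq and HTSeq 0.5.4. Strandedness, depth, the choice of loci and the program behind the FPKM are not given in the sources used for this work. FPKM is relative to the library total, so abundant transcripts that change move all others. Small RNA rows made up 29.1 to 39.0% of summed FPKM and were left out. Rn7sk was listed at 60705 FPKM in Neo water 1 and at 0 in the other 7 libraries. Whole reads could not be recovered from the values, so no count model was used.

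Coordinates were read as 0-based starts, since 9829 loci then matched GENCODE M21 genes, and are given 1-based. Protein-coding status came from M21 for 12129 identifiers and from RefSeq symbols for 31. Tested genes had at least 1 FPKM in at least 2 of the 4 libraries of the comparison. limma-trend was fitted to log2(FPKM + 1) with all 8 libraries in 4 groups (4 residual and 6.76 prior degrees of freedom), which understates changes of low genes. P-values were adjusted by Benjamini-Hochberg over all 9163 genes within a comparison. The analysis was tested on simulated data.

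Named genes were Egfr, Pomc, Stat3, Tbx19, Socs3 and Nr3c1, the 15 largest called increases and decreases with at least 5 mean FPKM in the higher group and groups that do not overlap, clone and histone names left out, up to 4 called members of each of 27 pathway lists and 4 marker lists, and the 8 largest increases and decreases between 18 h and 3 h under the same conditions. Some genes that this rule picks are left out of the text and count only in totals. The members and lists were chosen with earlier results of these data known. Same-numbered replicates correlated at -0.18 to 0.13 in their deviations from group means and were not treated as pairs. Promoters came from RefSeq (GRCm38.p6). Shared sequence was searched with minimap2 2.31 at 95% identity over at least 200 bases. The settings varied were the pseudocount (0.1), the filter (none, or FPKM of at least 5), 3 scalings, only the 2 groups compared, no variance trend, a replicate block, each library left out, all loci and an adjusted p below 0.01. Software versions were limma 3.58.1 (R 4.3.3), matplotlib 3.10.9, NumPy 2.4.6, pandas 2.3.3 and Python 3.11.15.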

Additional observations from a re-analysis of the deposited data

Results flagged for a closer look

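The genes below were picked out because their level at 18 h of EGF differed from that at 3 h of EGF in a direct limma test of the times and from water as well. They are among the 8 largest such increases and decreases by the rule for named genes, so their size was a criterion of choice. On the log2(FPKM + 1) scale, the differences between 18 h and 3 h were 1.68 for Grb14, 1.48 for Rab26, 1.43 for Usp18, 1.38 for Rit2, a small GTPase of neurons, 1.18 for Fam20a, a secretory pathway pseudokinase, 1.12 for Pglyrp3, a peptidoglycan recognition protein, and 1.09 for Lmo2. Rit2 was at 11.4 and 10.8 FPKM in water, 10.6 and 10.6 FPKM at 3 h and 29.2 and 29.2 FPKM at 18 h. Fam20a was at 12.3 and 12.1 FPKM in water, 10.5 and 11.2 FPKM at 3 h and 27.3 and 24.4 FPKM at 18 h. In both genes the 3 h libraries lay near or below water and the 18 h libraries well above it.

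Among the decreases the differences were -1.36 for Nab2, -0.95 for Dmpk, -0.88 for Sln, -0.88 for Cib3, a calcium and integrin binding protein, -0.83 for Myh14, a nonmuscle myosin heavy chain, -0.81 for Gamt, -0.80 for Sytl4 and -0.76 for Gucy2c, a guanylate cyclase receptor. Nab2 stood apart in shape: it was at 5.0999 and 5.19 FPKM in water, 16.3 and 17.7 FPKM at 3 h and 5.84 and 6.19 FPKM at 18 h, and its small remaining difference from water (0.19) lost its call without water 1, water 2 or 18 h EGF 2 (limma adjusted p = 0.0969, 0.0665 and 0.119). Myh14 was at 15.96 and 16.02 FPKM in water, 14.8 and 14.98 FPKM at 3 h and 7.93 and 7.98 FPKM at 18 h.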

How the results depend on the processing

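Of 2767 values of 130 named genes under 19 alternatives, 2690 kept their direction and their side of the threshold, 72 lost a call, 4 gained one and 1 turned sign: Fau was at 0.00184 after quantile normalization against -0.12 with the deposited values. The cause was not tested. Of the 130 named genes, 129 were called and most were picked for large differences, so the choice of genes favoured kept calls. Several settings, such as no filter, all loci and an adjusted p below 0.01, leave the differences themselves unchanged. The 14 genes with a changed call were Dkc1, Egfr, Fau, Gata2, Nab2, Nop14, Pomc, Psmd9, Psmg1, Rpl13a, Rpl18, Rps27l, Sox2 and Stat3. Gene list counts stayed within 1.5 times in 884 of 1026 cases. Against water, 1403 genes fell after scaling to a common sum, and at an adjusted p below 0.01, 1002 rose and 1209 fell. Leaving out each library in turn gave 1076 to 1592 genes that rose and 1190 to 2254 that fell. Between 18 h and 3 h, an adjusted p below 0.01 gave 1254 higher and 1055 lower, and leaving out each library gave 1333 to 2050 higher and 1123 to 1851 lower. Where a group kept 1 library, that library was assumed to vary like the other groups. With the replicate number as a block, 1476 genes rose and 2027 fell against water, and 1947 were higher and 1716 lower than at 3 h. The pairing is by number only (correlation of deviations -0.046 between water and 18 h). Among named genes the block changed the calls of Pomc (adjusted p = 0.0398, called lower) and Rpl18 (0.0528, not called). With 2 libraries a group and no counts, precision at low FPKM is unknown.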

Other observations

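Other lists are given beside the shares of all tested genes, of which 16.8% rose and 23.1% fell. Of 45 tested lysosome and autophagy genes, 7 rose (15.6%) and 3 fell (6.67%) against water, so the share that rose was near that of all genes and the share that fell was below it. Of the same 45, 26 were higher and 1 lower at 18 h than at 3 h, against 21.8% and 19.3% of all tested genes. Wipi1, of autophagosome formation, went from 4.01 and 4.16 FPKM in water to 6.62 and 6.16 FPKM at 18 h (0.54 on the log2 scale), and the lysosomal enzyme Hexa rose by 0.31. After scaling to a common sum, 18 of the 45 rose and 1 fell, and 4 rose and 1 fell without water 2 or 18 h EGF 2. Of 18 clock genes, 3 rose (16.7%) and 5 fell (27.8%), near the shares of all genes, with 1 higher and 3 lower when water 1 was left out, and 2 higher and 3 lower when 18 h EGF 2 was: Bhlhe40, a repressor of the clock and a hypoxia-induced gene, went from 2.92 and 2.15 to 7.29 and 6.67 FPKM (1.18), while Cry1 fell by 0.29 after standing above water at 3 h (11.3 and 11.5 FPKM against 8.899 and 8.46 FPKM). The time of day of the libraries is not given in the labels.

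Of 23 genes of the TGF beta, Notch and Wnt pathways, 7 rose (30.4%) and 3 fell (13.0%), and Fzd7, a Wnt receptor, went from 2.396 and 2.61 to 6.06 and 5.91 FPKM (0.996). The Notch ligand Jag2 rose by 0.36 and Ski, a corepressor of SMAD proteins, by 0.37. Of 38 cytoskeletal genes and SRF targets, 9 rose (23.7%) and 10 fell (26.3%), with 6 that fell without water 1, water 2 or 18 h EGF 1. Krt18, a keratin, rose by 0.44, Msn, moesin, by 0.49, and Stmn1, which destabilizes microtubules, fell by 0.46. Of the markers of other pituitary lineages, 2 were tested. Gata2 went from 10.5 and 11.7 to 9.02 and 9.44 FPKM (-0.24) and Sox2 from 4.16 and 4.23 to 3.59 and 3.495 FPKM (-0.19), both called lower. The call of Gata2 was lost without water 2 (limma adjusted p = 0.0908) or 18 h EGF 1 (0.0593), and that of Sox2 without any one of the 4 libraries (0.0855 to 0.131).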
